A study of Homo sapiens with 2 samples.

Results

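The 9 genes described here encode enzymes of the mevalonate arm of cholesterol synthesis, the stretch that runs from acetyl-CoA to squalene. They are ACAT2, HMGCS1, MVK, PMVK, MVD, IDI1, FDPS, GGPS1 and FDFT1, matched by gene symbol and gene ID out of 23619 genes measured. They were chosen by their place in the pathway, but with earlier results of these data known. Counts set beside the share of all genes are therefore description only. All 9 were found, on 15 probe sets, and all 9 passed the intensity filter used for counts. Steps of the arm outside these 9 genes were not analysed here.

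The groups were cells of HCT15, an established line of human colorectal cancer, carrying a stable lentiviral shRNA against LYAR, and HCT15 cells carrying a scramble shRNA. LYAR encodes a nucleolar zinc-finger protein. Cells of both groups were infected with virus made in 293T cells from the same vector and sorted for its GFP, so each is a sorted population, and the hairpin used for LYAR is not given in words in the labels. Total RNA of each group was read on 1 single-colour array, so no difference below has a replicate check and no test was possible.

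In this arm, units of acetyl-CoA are joined into HMG-CoA, which is reduced to mevalonate, phosphorylated and decarboxylated to the isoprene unit, isopentenyl diphosphate. These units are then added head to tail to make farnesyl diphosphate, and a pair of farnesyl groups is joined to squalene, the first committed precursor of sterols. Farnesyl and geranylgeranyl diphosphate also supply lipid anchors for small GTPases, ubiquinone side chains and dolichol. Most genes of the arm are known targets of SREBP2, a transcription factor that is released from the endoplasmic reticulum when membrane sterol is low and that acts with NF-Y and Sp1 on nearby promoter sites.

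Levels are RMA intensities, the authors' summary of 3 probes per probe set on a linear scale, and a difference is the log2 intensity in LYAR-shRNA cells less that in scramble-shRNA cells. A gene with several probe sets has the mean of their log2 values. Levels of different genes come from different probes and are not set against each other. LYAR itself measured 1036 in LYAR-shRNA cells against 1925 in scramble-shRNA cells, a difference of -0.89. Of 8 colon epithelial markers, 6 exceeded 2 times the random-probe intensity on both arrays. EPCAM, KRT8 and KRT18 differed by -0.07, -0.0009 and -0.08, while CDH1, VIL1 and CDX2 were higher in LYAR-shRNA cells, by 0.52, 0.51 and 0.30. The summed intensity over all 8 was 85651 in LYAR-shRNA cells and 86246 in scramble-shRNA cells, most of it from KRT8 and KRT18. KRT20 and CDX1 stayed under 2 times the random-probe intensity on both arrays. None of the 4 blood and 3 endothelial markers exceeded it on both arrays, and of the 5 fibroblast markers only COL1A1 did. The blood markers summed to 168 in LYAR-shRNA cells and 869 in scramble-shRNA cells, with CD79A, CD3E and HBB higher in scramble-shRNA cells, and their part in the results below was not tested. Fibroblast markers summed to 367 in LYAR-shRNA cells and 261 in scramble-shRNA cells, and endothelial markers to 108 in LYAR-shRNA cells and 92.4 in scramble-shRNA cells.

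Of the 9 genes, 8 were lower in LYAR-shRNA cells and 1, PMVK, was higher, beside 45.4% lower among all 12682 genes kept by the filter. MVD had the largest difference, 2.18-fold lower, and IDI1, MVK and FDFT1 lay between 1.84-fold and 1.88-fold lower. The median of the 9 differences was -0.45, beside 0.05 for all genes that passed. By gene means the difference was uneven along the pathway. The decarboxylase, the isomerase, the first kinase and the squalene synthase differed more than the thiolase, the HMG-CoA synthase and the prenyl diphosphate synthases. With each gene's brightest probe set alone the contrast was narrower. HMGCS1 and GGPS1 then both stood at -0.68, beside -0.80 for MVK and -0.86 for FDFT1.

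**Figure D1:**
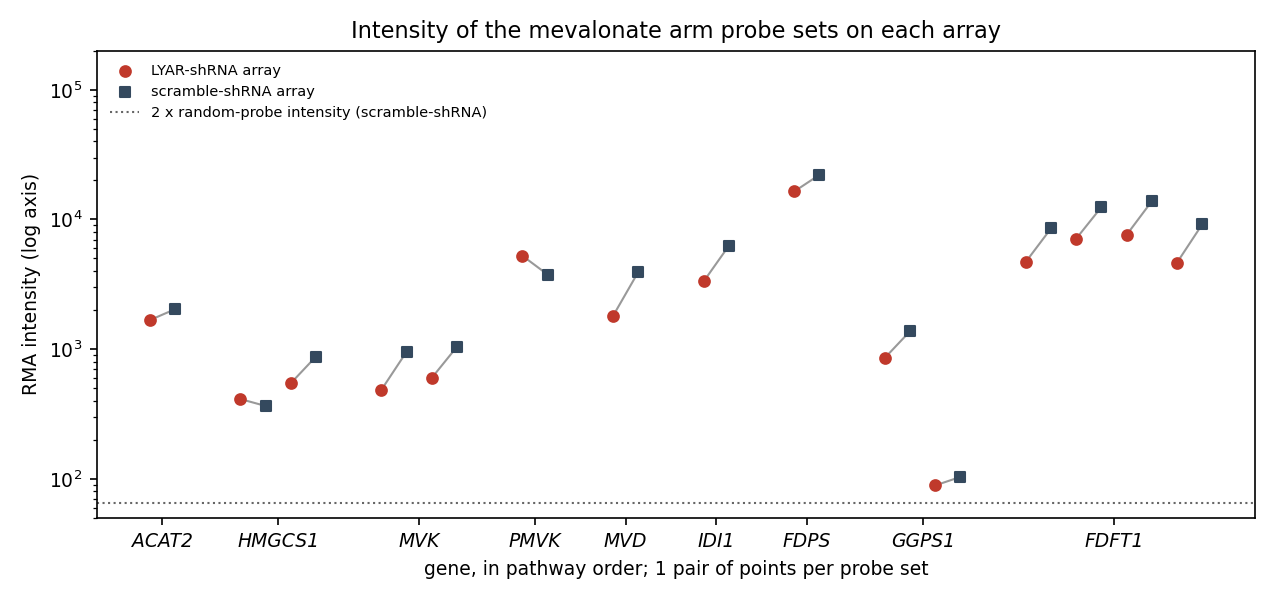
RMA intensity (log axis) of each of the 15 probe sets of the 9 genes in pathway order, with the LYAR-shRNA array as circles at the left of each pair and the scramble-shRNA array as squares at the right. The line falls toward the LYAR-shRNA array in 13 pairs and rises toward it in 2, the PMVK probe set and 1 of the 2 HMGCS1 probe sets.

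By gene means the opening steps differed little. ACAT2, the cytosolic thiolase that joins acetyl-CoA units into acetoacetyl-CoA, measured 1673 in LYAR-shRNA cells against 2031 in scramble-shRNA cells, a difference of -0.28. That is slightly more than the pooled SD of a gene's probe sets around their mean among the brightest genes, 0.23, and less than the SD of the differences over those genes, 0.40. In the files' hg18 annotation the ACAT2 transcript, on chromosome 6 from 160103074 to 160120077, overlaps that of TCP1, a chaperonin subunit. TCP1 measured 9619 in LYAR-shRNA cells against 10130 in scramble-shRNA cells. The labelling copied both cDNA strands, so signal from the overlap cannot be assigned to 1 of these genes.

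HMGCS1, the cytosolic HMG-CoA synthase, had 2 probe sets that pointed in opposite directions. The one for AK095492 measured 546 in LYAR-shRNA cells against 876 in scramble-shRNA cells, a difference of -0.68. The one for NM_002130 measured 412 in LYAR-shRNA cells against 364 in scramble-shRNA cells, a difference of 0.18. Both are annotated to nearly the same stretch of chromosome 5 in hg18, 43325254 to 43349271 and 43325253 to 43349241, so the annotated spans nearly coincide. The gene mean of -0.25 was smaller than the 0.61 SD between these probe sets, and the direction of HMGCS1 is therefore not settled by these arrays.

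The 3 reactions that turn mevalonate into isopentenyl diphosphate held both the largest lower value and the single higher one. MVK, mevalonate kinase, was lower on both of its probe sets. These measured 486 and 600 in LYAR-shRNA cells against 955 and 1043 in scramble-shRNA cells, with differences of -0.98 and -0.80. Both probe sets were thus lower in LYAR-shRNA cells, and the gene stood at 54.1% of the scramble-shRNA level.

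PMVK, which adds the next phosphate, measured 5247 in LYAR-shRNA cells against 3760 in scramble-shRNA cells. Its difference of 0.48, or 1.40-fold higher, ran against its neighbours on both sides in the pathway. It rests on 1 probe set, annotated in hg18 to chromosome 1 from 153163833 to 153176091. Of the 21 probe sets of MUC1, a membrane mucin, 1 has an annotated span that covers this stretch. Averaged over all 21 probe sets, MUC1 was also higher, with 391 in LYAR-shRNA cells against 226 in scramble-shRNA cells, a difference of 0.79. The value of the overlapping probe set alone is not given here, and the part of MUC1 in the PMVK value was not tested.

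MVD, the decarboxylase that completes isopentenyl diphosphate, measured 1802 in LYAR-shRNA cells against 3926 in scramble-shRNA cells, a difference of -1.12. At 45.9% of the scramble-shRNA level it was the 1 gene of the 9 past 2-fold, and it too rests on 1 probe set, annotated to chromosome 16 from 87245848 to 87256996. Only 0.402% of the 4228 brightest genes had a lower difference than MVD.

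Among the enzymes that rearrange and lengthen the isoprene unit, IDI1 differed most. IDI1, the isomerase that makes dimethylallyl diphosphate, measured 3327 in LYAR-shRNA cells against 6265 in scramble-shRNA cells, a difference of -0.91. Its probe set, on chromosome 10 from 1075962 to 1085061 in hg18, overlaps that of IDI2-AS1, whose level of 76.4 in LYAR-shRNA cells and 72.1 in scramble-shRNA cells did not pass the filter.

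FDPS, which makes farnesyl diphosphate, measured 16447 in LYAR-shRNA cells against 22105 in scramble-shRNA cells, a difference of -0.43. The gene is known to have processed pseudogenes, and whether the probes read those as well is not given in the files. PMVK and FDPS lie close together on chromosome 1, the FDPS probe set running from 153545373 to 153557080 in hg18, and they differed in opposite directions.

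GGPS1, which adds 1 further unit to make geranylgeranyl diphosphate, was lower on both probe sets by unlike amounts. The brighter one measured 857 in LYAR-shRNA cells against 1377 in scramble-shRNA cells, a difference of -0.68. The dimmer one measured 88.9 in LYAR-shRNA cells against 103.4 in scramble-shRNA cells, a difference of -0.22, at about 3 times the random-probe intensity. The gene mean of -0.45 was close to the pooled SD of probe sets at its level, 0.40. In hg18 the GGPS1 transcripts overlap those of ARID4B, whose mean intensity was 56.5 in LYAR-shRNA cells and 76.7 in scramble-shRNA cells.

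FDFT1, squalene synthase, carries carbon from farnesyl diphosphate into sterols and closes the arm. Its 4 probe sets, all on chromosome 8 between 11697598 and 11734227 in hg18, measured 4721, 7122, 7602 and 4638 in LYAR-shRNA cells against 8542, 12461, 13824 and 9149 in scramble-shRNA cells. The differences were -0.86, -0.81, -0.86 and -0.98, so every probe set was lower in LYAR-shRNA cells and their SD was 0.07. These probe sets read overlapping transcripts on the same 2 arrays and are not replicates. The gene mean of -0.88 corresponds to 54.5% of the scramble-shRNA level.

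**Figure D2:**
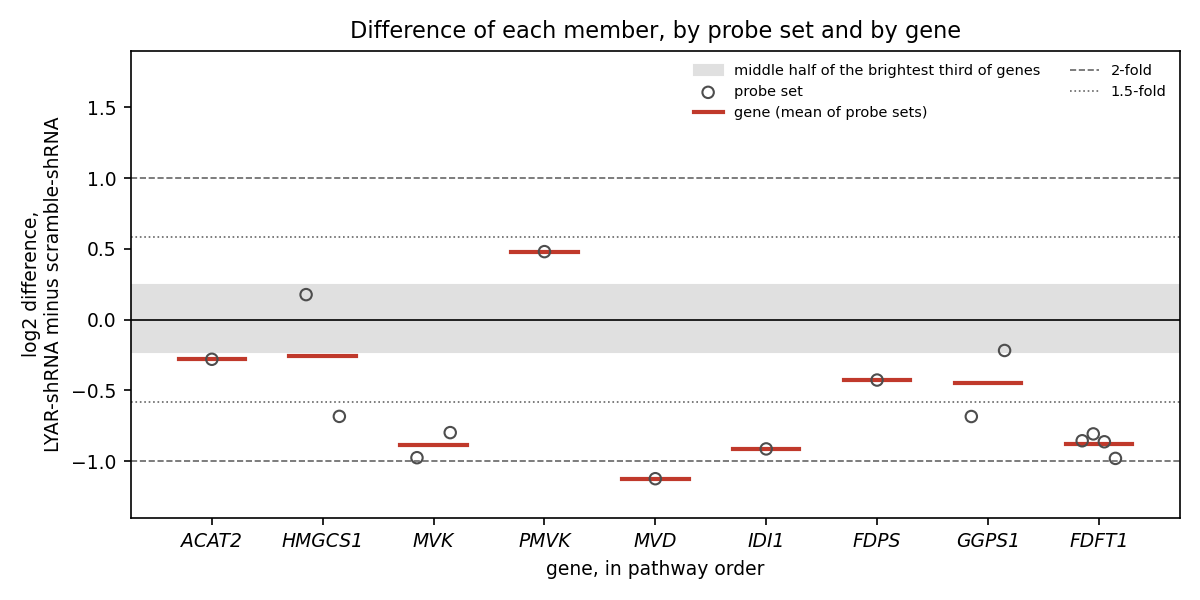
Log2 difference, LYAR-shRNA minus scramble-shRNA, of each probe set (circles) and gene (bars), with dashed lines at 2-fold, dotted lines at 1.5-fold and a grey band for the interquartile range of the 4228 brightest genes. MVD lies past 2-fold lower, MVK, IDI1 and FDFT1 lie between 1.5-fold and 2-fold lower, PMVK is above 0, and the 2 HMGCS1 probe sets fall on either side of 0.

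Set against all genes, 1 of the 9 was at least 2-fold lower, where 3.56% of the 12682 passing genes were, and 0 were at least 2-fold higher, where 5.06% were. At 1.5-fold, 4 of the 9 were lower, where 11% of passing genes were, and 0 were higher, where 15% were. The 5 members under 1.5-fold were ACAT2, HMGCS1, PMVK, FDPS and GGPS1.

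Bright genes differ less between these arrays than dim ones, and 6 of the 9 members, ACAT2, PMVK, MVD, IDI1, FDPS and FDFT1, were among the 4228 brightest of the genes that passed. Of these 6, 5 were below 0, where 48.2% of the 4228 brightest genes were. At 1.5-fold 3 of the 6 were lower and 0 higher, where 6.05% and 6.08% of those genes were. At 2-fold 1 was lower and 0 higher, where 0.781% and 1.16% were. IDI1 had 1.40% and FDFT1 1.66% of the brightest genes below it. ACAT2 had 20.9% and FDPS 11.6% below it, while PMVK had 9.27% above it. The other 3 members lay among the 4226 genes of middle brightness, where 3.29% of genes were lower than MVK, 14.0% lower than GGPS1 and 24.3% lower than HMGCS1. MVD and IDI1 differed at least as much as LYAR, the gene targeted by the hairpin, and MVK and FDFT1 differed by nearly as much.

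**Figure D3:**
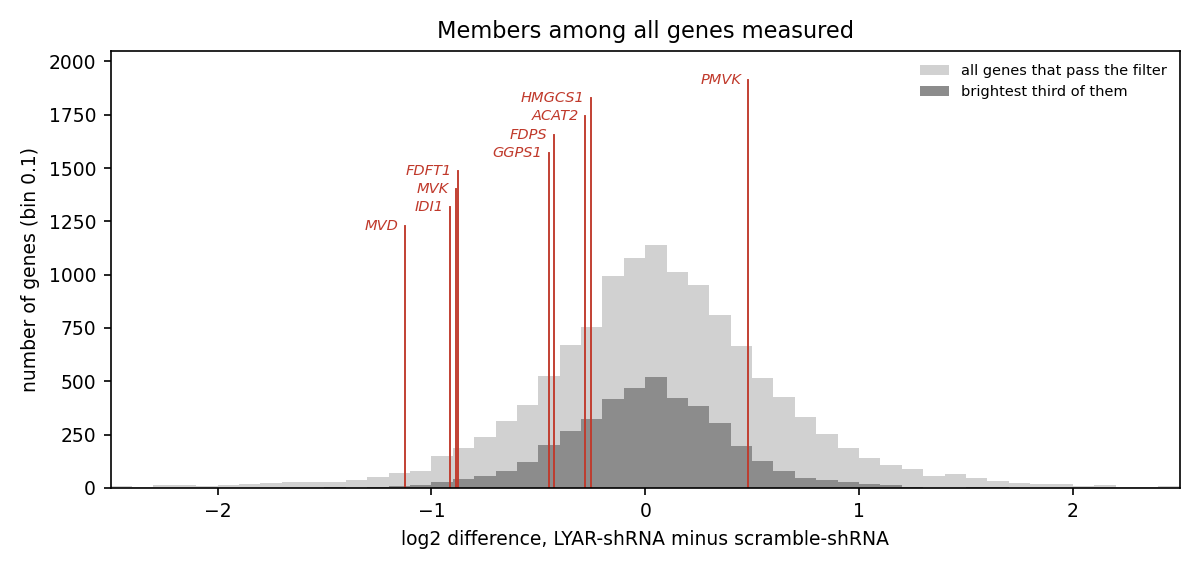
Number of genes by log2 difference, LYAR-shRNA minus scramble-shRNA, in bins of 0.1, for all 12682 genes that passed the filter (light) and the 4228 brightest of them (dark), with the 9 members as vertical lines. MVD, IDI1, MVK and FDFT1 stand in the lower tail of both distributions, and PMVK stands on the upper flank.

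Some steps have a second enzyme in another compartment or tissue, which gives a comparison within the same arrays. ACAT1, the mitochondrial thiolase of ketone and isoleucine metabolism, had a difference of 0.32 beside -0.28 for ACAT2. IDI2, a second isomerase, did not pass the filter. It measured 56.9 in LYAR-shRNA cells against 91.0 in scramble-shRNA cells, the first of these under 2 times the random-probe intensity, so only its direction is given.

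Listed genes that supply acetyl-CoA, or use the same intermediates, were mostly lower as well. ACSS2, which makes acetyl-CoA from acetate, measured 1905 in LYAR-shRNA cells against 4164 in scramble-shRNA cells, and FASN, the fatty acid synthase that draws on the same acetyl-CoA, measured 1796 in LYAR-shRNA cells against 3589 in scramble-shRNA cells. Their differences were -1.13 and -0.999. Of the 9 listed genes of acetyl-CoA supply and use, 7 passed the filter. Of these 7, 5 were below 0 and 2 above 0, where 45.4% of all passing genes were below 0. At least 1.5-fold lower were 4, FASN among them, beside 11% of all passing genes, and the median was -0.64.

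Past squalene the differences were smaller. Of the 13 later genes, all of which passed, 9 were below 0 and 4 above, 2 were past 1.5-fold lower and 0 past 2-fold lower, with a median of -0.30. These 2 of 13 are near the 11% of all passing genes past 1.5-fold lower. Of all passing genes 45.4% were below 0, and their median was 0.05. DHCR7, a late reductase of cholesterol synthesis, measured 4163 in LYAR-shRNA cells against 8147 in scramble-shRNA cells, a difference of -0.97, and MSMO1, a C4-demethylating oxidase, differed by -0.60. SC5D and TM7SF2, a desaturase and a sterol reductase, lay at 0.48 and 0.45, about where PMVK did. SC5D was among the dimmest genes that passed. Its 2 probe sets stood at 0.12 and 0.84, with an SD of 0.50, larger than the gene mean.

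Genes of sterol sensing went both ways. INSIG1, which holds SREBP in the endoplasmic reticulum and is itself an SREBP target, measured 523 in LYAR-shRNA cells against 2304 in scramble-shRNA cells, a difference of -2.14. SREBF1 differed by -0.97, and SREBF2, the gene of SREBP2, by -0.16. INSIG2 and MBTPS1, a second retention factor and the protease that makes the first cut in SREBP, had differences of 0.66 and 0.76. The 3 MBTPS1 probe sets ran from 0.05 to 1.44, with an SD of 0.69, so the size of its difference is uncertain. SREBF1, SREBF2 and INSIG2 rest on 1 probe set each. Of the 9 that passed, 5 were below 0 and 4 above, with a median of -0.16.

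Genes that use the isoprenoid products, or act in protein prenylation and its later processing, showed no common direction. Of 17 that passed, 8 were below 0 and 9 above, with a median of 0.01. RCE1, the protease that trims prenylated proteins, and COX10, which attaches farnesyl to heme, differed by -0.82 and -0.74. TRIT1, which prenylates tRNA, had a difference of 0.67. CHML, a Rab escort protein, was at least 1.73-fold higher, with 112.9 in LYAR-shRNA cells against 43.7 in scramble-shRNA cells, and it passed the filter through the LYAR-shRNA array alone.

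**Figure D4:**
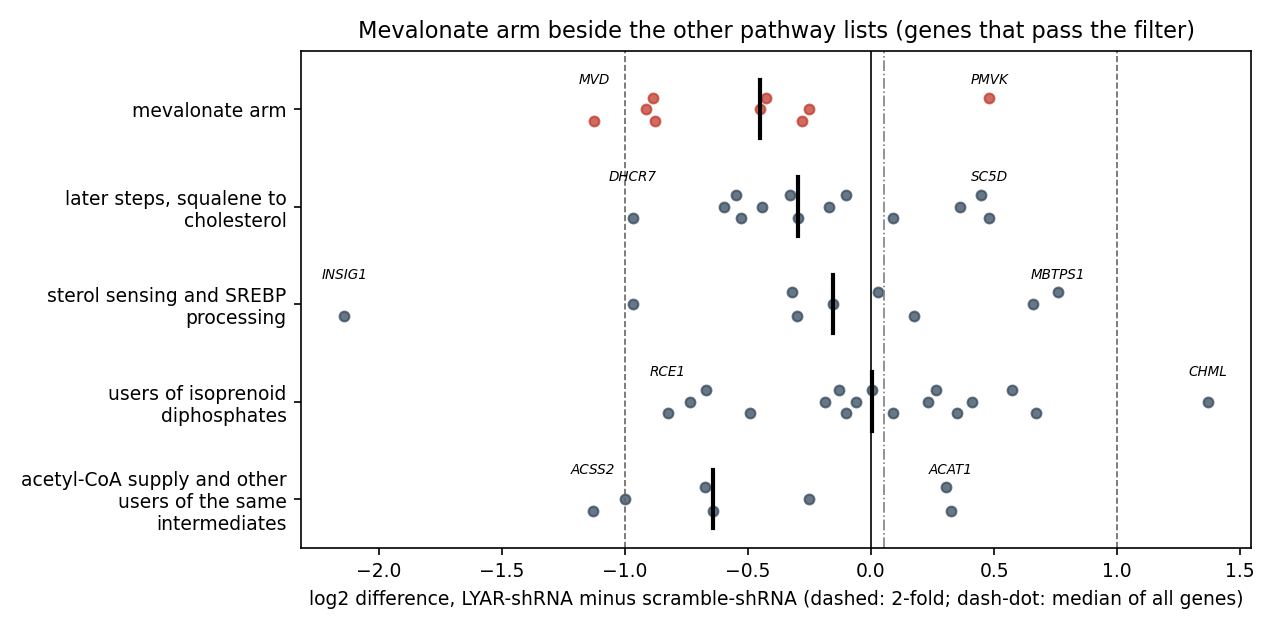
Log2 difference, LYAR-shRNA minus scramble-shRNA, of each gene that passed the filter, for the mevalonate arm (top) and the other 4 lists, with the list median as a black bar, the lowest and highest gene named, dashed lines at 2-fold and a dash-dot line at the median of all genes. The medians are -0.45 for the mevalonate arm, -0.64 for acetyl-CoA supply and use and 0.01 for users of isoprenoid diphosphates. Taking only each gene's brightest probe set puts the first 2 in the other order, at -0.68 and -0.42.

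Promoter sequence was compared because genes of this arm are known to share SREBP2, NF-Y and Sp1 as regulators. RefSeq windows of build GRCh38.p14 covered 7 of the 9 genes with 12 annotated starts, and ACAT2 and FDFT1 were not among them. In the 250 bases before each start, the CCAAT box (CCAAT), the GC box (GGGCGG) and the sterol element TCACNCCAC were searched on both strands. The 4 genes with a single annotated start are shown 5′ to 3′ on the gene's strand, with CCAAT boxes in capitals in either orientation (CCAAT or ATTGG). MVK, MVD and FDPS were lower in LYAR-shRNA cells and PMVK was higher. The windows are chr12:109573544-109573793 (plus strand) for MVK, chr16:88663092-88663341 (minus) for MVD, chr1:155308616-155308865 (plus) for FDPS and chr1:154936720-154936969 (minus) for PMVK.
MVK: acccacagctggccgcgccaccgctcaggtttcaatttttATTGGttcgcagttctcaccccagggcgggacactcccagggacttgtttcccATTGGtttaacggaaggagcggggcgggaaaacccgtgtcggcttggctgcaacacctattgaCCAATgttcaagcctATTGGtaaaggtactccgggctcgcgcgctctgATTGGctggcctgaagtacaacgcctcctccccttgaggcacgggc
MVD: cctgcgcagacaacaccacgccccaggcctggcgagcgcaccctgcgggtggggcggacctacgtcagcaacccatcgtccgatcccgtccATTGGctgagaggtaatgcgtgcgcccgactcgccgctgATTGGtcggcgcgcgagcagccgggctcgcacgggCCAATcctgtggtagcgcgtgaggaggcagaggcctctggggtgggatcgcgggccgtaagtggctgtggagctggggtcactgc
FDPS: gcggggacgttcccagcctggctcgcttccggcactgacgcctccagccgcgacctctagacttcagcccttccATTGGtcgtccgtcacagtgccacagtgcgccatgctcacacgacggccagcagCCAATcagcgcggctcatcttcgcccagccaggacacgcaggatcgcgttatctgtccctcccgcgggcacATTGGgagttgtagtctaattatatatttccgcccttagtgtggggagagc
PMVK: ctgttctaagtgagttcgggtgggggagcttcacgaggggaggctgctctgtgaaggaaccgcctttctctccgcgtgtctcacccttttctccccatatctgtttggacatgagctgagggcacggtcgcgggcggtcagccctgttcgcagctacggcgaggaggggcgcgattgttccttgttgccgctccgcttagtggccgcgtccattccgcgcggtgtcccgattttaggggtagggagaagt

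The MVK window held 5 CCAAT boxes, and the MVD and FDPS windows held 3 each. The PMVK window held 0. Among all 35116 RefSeq windows, 32.01% held at least 1 CCAAT box, 2.93% at least 3 and 0.319% at least 5. IDI1 had 3 starts, whose windows held 3, 2 and 0 CCAAT boxes, and the first of these counts includes a pair of overlapping matches in opposite orientation. HMGCS1 had 2 partly overlapping windows with 0 and 2, and GGPS1 had 3 windows with 0, 1 and 0. Of the 12 member windows, 7 held a CCAAT box, which is the count to set beside the 32.01%. By gene, 6 of the 7 covered had a CCAAT box in at least 1 window, and PMVK did not. The matching share by gene was not computed over all genes. IDI1, HMGCS1 and GGPS1 each had more than 1 window, and each also had a window with 0. No relation between motif count and difference was tested.

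GC boxes were present in 11 of the 12 windows, PMVK with 1, MVD with 1, FDPS with 1 and MVK with 2, and in 42.6% of all windows. The spelled sterol element matched 0 of the 12 windows and 0.883% of all windows. Other spellings were not searched, so the 0 does not show that these promoters lack sterol elements. A match is a string of letters in a window and not a measured site, and no binding was measured in this study.

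**Figure D5:**
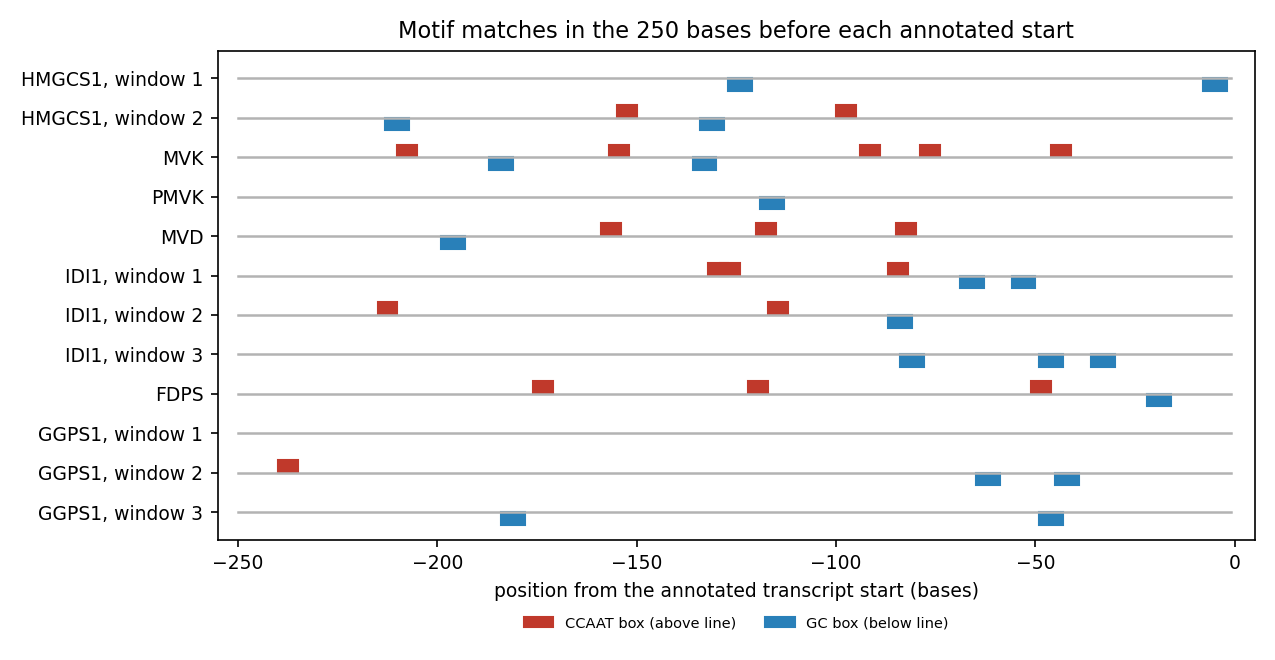
Position of CCAAT boxes (above the line) and GC boxes (below the line) in the 250 bases before each of the 12 annotated starts, in bases from the start, with windows of 1 gene numbered by coordinate. MVK shows 5 CCAAT boxes, MVD and FDPS 3 each, and PMVK none.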

How the data were processed

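Total RNA of HCT15 cells with a LYAR or a scramble shRNA was made into double-stranded cDNA from oligo dT primers, Cy3-labelled and hybridised to NimbleGen arrays, per the labels' protocols. The deposited intensities are linear, 1 value for each probe set, made by the authors with RMA according to the submitters' processing notes. Its version and settings were not given in the sources used here, and a shift shared by most genes would not be visible after such a normalization. Positions are in hg18, per the file headers. A deposited series table holds the same intensities, within 0.0403, for 22639 of the 45033 probe sets, all 15 member probe sets included.

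Gene IDs, present for 42947 probe sets, were matched to RefSeq symbols (assembly GRCh38.p14, 90.6% matched). Log2 intensities of a gene's probe sets were averaged on each array, with no pseudocount. Genes counted were the 12682 whose brighter array reached the median gene level, 105.9. Passing needs only 1 bright array. A value under 2 times the random-probe intensity (30.3 in LYAR-shRNA cells, 32.7 in scramble-shRNA cells) was treated as a bound, and the fold was then taken against that level as at least N-fold. Calls were made by size at 2-fold and 1.5-fold. The number of arrays, 1 in each group, limits the precision, so no test was made, and the SD of a gene's probe sets around their mean, pooled over genes, was 0.463 for passing genes and 0.230 for the 4228 brightest.

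The text names all 9 members, LYAR, and in each list up to 2 passing genes with the largest difference in each direction. A gene that this rule names is not reported here, though it stays in its list's counts. The markers were named as listed. SREBF2, the isozyme IDI2 and overlapping or neighbouring genes were named after their values were seen. The members and lists were chosen with earlier results of these data known. The counting was run on simulated data with added differences well past 2-fold and far less noise than these arrays. That run checks the code and not the calls made here. Python 3.11.15 with pandas 2.3.3, numpy 2.4.6 and statsmodels 0.14.6 was used. The alternatives were the brightest probe set, the series table, median centring, a lowess trend removed, quantile normalization, a pseudocount of 32, no filter, and a filter on both arrays.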

Additional observations from a re-analysis of the deposited data

How the results depend on the processing

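Of the 8 alternatives, both changes of the filter and the series table leave the members' own differences in place, so at most 5 recompute them. Among those 45 values 0 had another sign, but for many of them the sign could not change. The brightest probe set repeats the main value for the 5 members with 1 probe set. Median centring subtracts the same 0.05 from every gene, and a pseudocount only shrinks the difference of a single probe set. None of the 45 used the HMGCS1 probe set that stood at 0.18 alone. MVD ranged from -1.18 to -1.11, IDI1 from -0.97 to -0.91, FDFT1 from -0.93 to -0.86, MVK from -0.94 to -0.80 and PMVK from 0.43 to 0.48. In each of these 5 alternatives 8 members were below 0 and 1 was past 2-fold. With the brightest probe set of each gene, HMGCS1 and GGPS1 both stood at -0.68, the members past 1.5-fold numbered 6 in place of 4, and the members' median was -0.68, the low end of a range whose high end was -0.43 with the pseudocount. The low end follows from leaving out the dimmer probe sets of HMGCS1 and GGPS1. The same setting moved the median of acetyl-CoA supply and use to -0.42 in place of -0.64. Over the 8 alternatives the median for sterol sensing ranged from -0.28 to -0.06 and that for users of isoprenoid diphosphates from -0.05 to 0.01. Counts over all genes moved more. With the pseudocount 299 genes were past 2-fold lower and 408 past 2-fold higher, in place of 452 and 642. Without the filter, which adds dim genes, 1025 and 1167 of 23619 genes were past 2-fold lower and higher, 3176 and 3485 past 1.5-fold lower and higher in place of 1393 and 1903, and 11418 below 0 in place of 5753. With both arrays required to reach 2 times the random-probe intensity, 270 genes were at least 2-fold lower. FASN stands so close to 2-fold that its side of that line is not settled. No paired analysis was possible because each group has 1 array.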

Other observations

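Genes that lie next to a member, named after their values were seen, did not all follow it. MMAB, an enzyme of vitamin B12 metabolism, lies 314 bases from MVK in the hg18 annotation, and it measured 384 in LYAR-shRNA cells against 329 in scramble-shRNA cells, a difference of 0.22 beside -0.89 for MVK. CYBA, a subunit of the NADPH oxidase, lies 890 bases from MVD and differed by 0.01 beside -1.12. RUSC1 lies 230 bases from FDPS and differed by -0.47 beside -0.43, with its 5 probe sets between -0.69 and -0.23. RUSC1-AS1, which overlaps FDPS, differed by -0.17, with its 3 probe sets between -1.09 and 0.42. MUC1, of which 1 of 21 probe sets is annotated across PMVK, differed by 0.79 beside 0.48, with its probe sets between 0.14 and 1.84. Each of these values comes from 1 array per group, and no difference between neighbours was tested.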
